A study of Arabidopsis thaliana with 9 samples.

Results

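Leaves of hac1-2, an Arabidopsis thaliana line with a T-DNA insertion in HAC1 (SALK_136314), were compared with leaves of wild type Col-0 (WT) across every gene with enough reads to be tested. HAC1 is a CBP-type histone acetyltransferase, one of the enzymes that add acetyl groups to histones and act as transcriptional coactivators. RNA was sequenced from 3 WT and 3 hac1-2 libraries, 6 of the 9 in the series, made from full leaves 12 to 14 at day 49 after sowing. All plants grew untreated with 20 h of light (28 µmol photons m-2 s-1) and 4 h of darkness a day. The remaining 3 libraries, from the insertion line hac1-1 (SALK_080380), entered the estimate of the spread but not the contrast. Of 33323 genes in the count table, 16560 passed the expression filter and form the set described here. The WT leaves are labelled senescent and the hac1-2 leaves non-senescent with delayed senescence, so genotype and senescence state cannot be told apart. The labels name 1 insertion line per allele, and the series' design speaks of 1 biological replicate, so the p-values rest on the spread among these libraries, which could be technical.

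Leaf senescence is a controlled dismantling of the leaf. Chlorophyll and the photosynthetic apparatus are broken down, nitrogen and sugars are exported to growing organs, and genes under salicylic acid, jasmonate and ethylene control are switched on along the way. WRKY factors, which bind W-boxes, and NAC factors are known regulators of this programme. Histone acetylation generally accompanies active transcription.

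In hac1-2 leaves, 14 of 20 tested salicylic acid genes, 7 of 12 senescence-associated genes, 16 of 32 jasmonate genes and 15 of 19 aliphatic glucosinolate genes fell against WT. Rises were called for 8 of 20 antenna genes, 7 of 24 chlorophyll synthesis genes, 9 of 25 starch turnover genes and 9 of 32 genes of abscisic acid response and dehydrins, and the other members of these 4 lists were not called apart from 1 fall in each of the last 2. edgeR's quasi-likelihood test called 1704 genes at a Benjamini-Hochberg adjusted p under 0.05, which is 10.3% of those tested, with 472 higher in hac1-2 (2.85%) and 1232 lower (7.44%). The median log2 fold change over all tested genes was 0.02. Among called genes 72.3% were lower, and 57.8% were lower when libraries were scaled by their total counts alone. Changes of at least 2-fold were more often falls, with 501 genes called lower (3.03%) and 88 called higher (0.531%) by that much. The 6 libraries held 5847562 to 9461600 counts, and 3 counts stood for 0.317 to 0.513 CPM. In 4638 genes (28.0%) the WT and hac1-2 values did not overlap, among them 1671 of the called genes. The fits that left out a single library called 1202 to 1318 genes, and 830 of the 1704 genes were called in all 6 of those fits. Below, CPM is a count scaled to library size with TMM factors, a called gene is one that passed this test, and "rose" and "fell" are used of called genes alone.

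**Figure D1:**
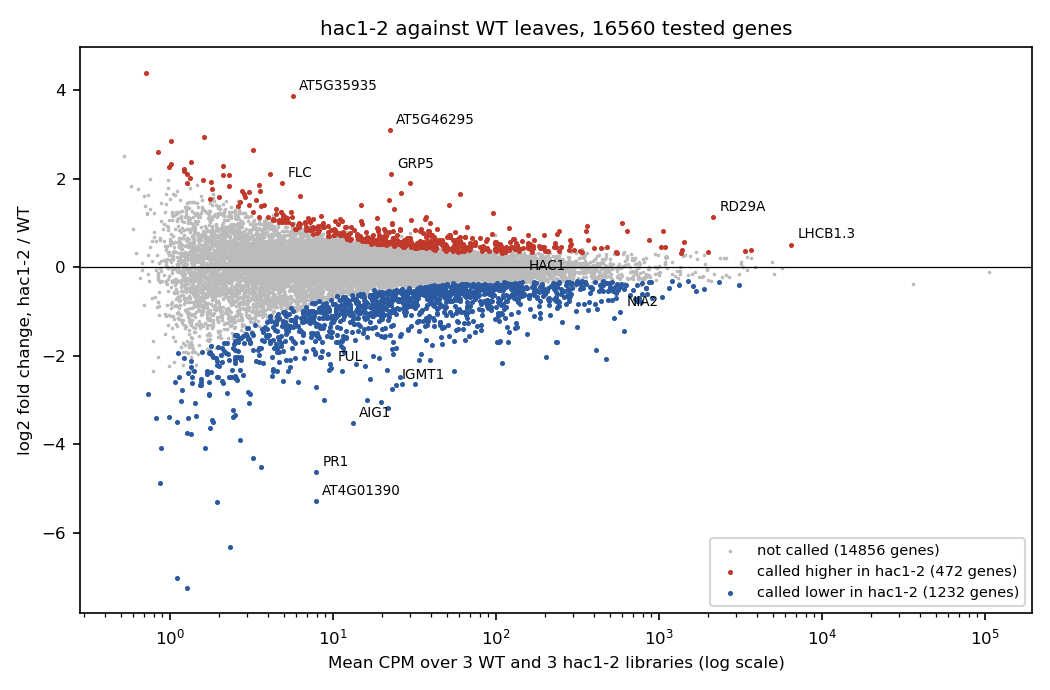
Each point is 1 of the 16560 tested genes, placed by its mean CPM over the 6 libraries (log scale) and its log2 fold change of hac1-2 over WT. The 1232 called falls (blue) reach further from 0 than the 472 called rises (red), and abundant genes such as LHCB1.3 and RD29A lie among the rises.

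Sequence before the start of called genes is shown first, since short motifs in this region differed in frequency between genes that rose and genes that fell. A window from 250 bases before to 50 bases after the annotated start was read on both strands for 16487 tested genes. The DRE core, known as a binding site of CBF and DREB factors, was searched as GCCGAC alone. It was in 8.07% of windows of genes called higher, 2.45% of those called lower and 3.78% of all tested windows. The evening element (AAAATATCT), known from clock-controlled genes, was in 6.16% of windows of genes called higher, 3.36% of those called lower and 3.13% of all. The W-box (TTGACC or TTGACT) was in 37.6% of windows of genes called lower, 26.5% of those called higher and 32.5% of all. The telo-box (AAACCCTA), common before genes of the translation machinery, was in 2.37% of windows of genes called lower, 4.25% of those called higher and 5.76% of all. For the I-box (GATAAG) the shares were 19.3% among genes called higher, 16.4% among those called lower and 15.2% of all. The G-box (CACGTG) was in 10.4, 9.57 and 9.07% of windows of genes called higher, called lower and all tested, the GCC-box (GCCGCC) in 1.49, 2.62 and 2.83%, and the rapid stress response element (CGCGTT) in 3.82, 5.07 and 3.92%. Among the 88 windows of genes called higher at least 2-fold, the shares were 7.95% for the DRE core and for the evening element, 21.6% for the W-box, 6.82% for the telo-box, 11.4% for the I-box, 9.09% for the G-box, 0% for the GCC-box and 1.14% for the rapid stress response element. The I-box and telo-box shares thus lay on the other side of the share over all windows than among all genes called higher. Among the 498 windows of genes called lower at least 2-fold, the I-box share was 14.9%, the W-box share 38.4% and the evening element share 4.42%. None of the motifs contains another, and these shares are a description without a test. A match is not evidence that a factor binds there.

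The 150 bases before the start of 3 genes per motif follow, 5′ to 3′ on the strand of the gene, with the motif in capitals. Where the motif lies on the opposite strand its reverse complement is printed, which holds for XERO2, ANAC072, NIA2, ISA3, PWD, CER1 and 1 of the paired motifs in SAG20 and in GSTF7. These genes were chosen after their values were seen, as called genes described below that hold a motif in this stretch. The letters come from the TAIR10.1 reference, whose chromosomes carry the coordinates of TAIR10. The DRE core, as GCCGAC alone, stands before COR15A (chr2), XERO2 (chr3) and ANAC072 (chr4), which rose.
COR15A (chr2:17712331-17712480, minus strand): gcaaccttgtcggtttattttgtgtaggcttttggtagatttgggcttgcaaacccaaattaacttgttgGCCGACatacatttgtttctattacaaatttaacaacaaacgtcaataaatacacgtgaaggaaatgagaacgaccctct
XERO2 (chr3:18940493-18940642, plus strand): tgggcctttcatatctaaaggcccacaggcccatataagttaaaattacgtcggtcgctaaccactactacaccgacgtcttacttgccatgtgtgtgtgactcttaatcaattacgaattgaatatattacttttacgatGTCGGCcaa
ANAC072 (chr4:13709171-13709320, minus strand): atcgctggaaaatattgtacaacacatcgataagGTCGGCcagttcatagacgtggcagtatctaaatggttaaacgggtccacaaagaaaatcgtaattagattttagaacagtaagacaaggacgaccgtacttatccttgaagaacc
W-boxes stand before SAG20, GSTF7 and NIA2, which fell. SAG20 and GSTF7 hold a pair each.
SAG20 (chr3:3442087-3442236, plus strand): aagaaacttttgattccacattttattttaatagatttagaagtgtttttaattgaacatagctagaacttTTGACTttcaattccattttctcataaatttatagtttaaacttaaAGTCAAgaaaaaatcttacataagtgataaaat
GSTF7 (chr1:659981-660130, minus strand): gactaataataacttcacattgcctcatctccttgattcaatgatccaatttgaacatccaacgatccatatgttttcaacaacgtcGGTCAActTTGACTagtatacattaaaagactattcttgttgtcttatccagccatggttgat
NIA2 (chr1:14158302-14158451, plus strand): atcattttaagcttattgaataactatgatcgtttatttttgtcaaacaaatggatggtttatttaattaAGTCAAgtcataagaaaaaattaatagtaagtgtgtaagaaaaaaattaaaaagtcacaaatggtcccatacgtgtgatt
The evening element stands before the starch enzyme genes ISA3 and PWD and the wax gene CER1, which rose.
ISA3 (chr4:5783759-5783908, plus strand): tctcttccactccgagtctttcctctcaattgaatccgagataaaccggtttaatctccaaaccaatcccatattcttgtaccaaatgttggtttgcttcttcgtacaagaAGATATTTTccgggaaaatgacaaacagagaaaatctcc
PWD (chr5:9261329-9261478, plus strand): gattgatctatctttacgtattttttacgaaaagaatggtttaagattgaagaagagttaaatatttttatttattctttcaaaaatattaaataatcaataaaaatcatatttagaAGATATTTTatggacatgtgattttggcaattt
CER1 (chr1:418266-418415, plus strand): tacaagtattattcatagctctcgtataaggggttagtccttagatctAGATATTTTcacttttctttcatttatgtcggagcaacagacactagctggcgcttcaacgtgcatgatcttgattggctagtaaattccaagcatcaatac

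HAC1 itself (AT1G79000, chromosome 1 from 29716350 to 29724748, minus strand) did not pass the test in hac1-2. It stood at 153, 167 and 146 CPM in WT and 150.3, 132 and 121.6 CPM in hac1-2, a log2 fold change of -0.2 (SE 0.11, edgeR adjusted p = 0.31). The groups overlapped, and the hac1-2 labels are therefore not checked by the count of the targeted gene, whatever part of the transcript the reads come from. Of the 20 tested genes nearest to HAC1, 10 on either side, 2 were called, both higher. AT1G78995, the next gene on the same strand, annotated as an uncharacterized protein, stood at 27.3, 32.5 and 21.6 CPM in WT and 39.2, 41.4 and 36.2 CPM in hac1-2. AT1G78995 rose by 0.53 log2 units (SE 0.16, adjusted p = 0.039 in edgeR), which did not pass on log2(FPKM + 0.1) values or in the fits that left out WT replicate 1 or 3 or hac1-2 replicate 1, 2 or 3. AT1G79030, a DnaJ-domain gene, rose with an edgeR adjusted p of 0.049, a call lost in each of the 6 fits without a single library. None of the 10 tested histone acetyltransferase genes was called by edgeR or DESeq2, and 1 of them, HAM2, had an unadjusted edgeR p under 0.05 and was called without WT replicate 3. Their median log2 fold change was -0.02.

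The largest falls included PR1, AIG1 and PR5, which are known from defence. PR1, the classic marker of salicylic acid signalling, stood at 15.3, 11.1 and 19.6 CPM in WT and 0.412, 1.16 and 0.134 CPM in hac1-2. PR1 fell by 4.62 log2 units (SE 0.50, adjusted p = 2.2e-07 in edgeR), and this log2 fold change ranged from -5.73 to -3.59 over the alternatives, being smallest on log2(FPKM + 1) values. AT4G01390, a TRAF-like protein gene, stood at 14.3, 19 and 12.7 CPM in WT and 0.549, 0.106 and 0.538 CPM in hac1-2. AT4G01390 fell by 5.29 log2 units (SE 0.43, adjusted p = 1.3e-09 in edgeR). AIG1, a gene first known for induction by a bacterial effector, stood at 28.8, 24.8 and 20.3 CPM in WT and 2.2, 2.75 and 1.34 CPM in hac1-2. AIG1 fell by 3.52 log2 units (SE 0.29, adjusted p = 1.3e-09 in edgeR). In each of the 3 genes every hac1-2 library lay far below the lowest WT library. The ranking of the largest falls required groups without overlap.

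Further large falls were in regulators, enzymes and secreted proteins. MYB15, a transcription factor of defence-induced lignin synthesis, stood at 27.6, 33.2 and 25.5 CPM in WT and 3.43, 4.97 and 2.15 CPM in hac1-2. MYB15 fell by 2.99 log2 units (SE 0.25, adjusted p = 1.3e-09 in edgeR). PR5, a thaumatin-like pathogenesis-related protein gene, stood at 37.3, 34.6 and 48.9 CPM in WT and 5.77, 3.81 and 8.74 CPM in hac1-2. PR5 fell by 2.75 log2 units (SE 0.22, adjusted p = 1.3e-09 in edgeR). The thionin gene AT1G66100 stood at 13.7, 16.8 and 10.7 CPM in WT and 2.2, 2.54 and 1.48 CPM in hac1-2. AT1G66100 fell by 2.7 log2 units (SE 0.33, adjusted p = 1.5e-06 in edgeR). SUFE2, which belongs to the iron-sulfur cluster machinery of plastids, stood at 47.6, 39.8 and 49.5 CPM in WT and 5.22, 7.72 and 9.0 CPM in hac1-2. SUFE2 fell by 2.64 log2 units (SE 0.19, adjusted p = 1.0e-10 in edgeR). In none of these 4 genes did a hac1-2 library reach the lowest WT library, as the ranking required. BIP3, an endoplasmic reticulum chaperone gene of the unfolded protein response, stood at 9.49, 9.35 and 12.5 CPM in WT and 2.06, 0.846 and 2.42 CPM in hac1-2. BIP3 fell by 2.59 log2 units (SE 0.39, adjusted p = 3.2e-05 in edgeR). AT5G28610 stood at 35.3, 41.6 and 42.2 CPM in WT and 1.65, 9.3 and 1.34 CPM in hac1-2, and hac1-2 replicate 2 stood apart from the other mutant libraries. AT5G28610 fell by 3.18 log2 units (SE 0.35, adjusted p = 3.2e-07 in edgeR), and without hac1-2 replicate 2 the log2 fold change was -4.71. The other members of the 15 largest falls were AT4G13540, AT3G28510, AT3G28580, AT4G23680, AT5G38710 and IGMT1, with log2 fold changes from -3.04 (AT4G13540) to -2.48 (AT5G38710).

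Among genes whose mean reached 5 CPM, the largest rise was in AT5G35935, annotated as a pseudogene on chromosome 5 (14083388 to 14089891, minus strand). It stood at 0.425, 1.21 and 0.601 CPM in WT and 9.62, 11.3 and 11.2 CPM in hac1-2. AT5G35935 rose by 3.87 log2 units (SE 0.37, adjusted p = 2.1e-08 in edgeR). Against this, log2(FPKM + 1) values gave 1.27, since the pseudocount outweighs a gene this low in WT. AT5G46295, an uncharacterized protein gene, stood at 3.4, 5.19 and 5.41 CPM in WT and 30.4, 42.6 and 47.7 CPM in hac1-2. AT5G46295 rose by 3.1 log2 units (SE 0.21, adjusted p = 9.1e-11 in edgeR). GRP5, a glycine-rich cell wall protein gene, stood at 8.07, 7.62 and 10.099 CPM in WT and 27.6, 44.8 and 38.8 CPM in hac1-2. GRP5 rose by 2.1 log2 units (SE 0.20, adjusted p = 1.7e-08 in edgeR). LTP3, a lipid transfer protein gene, stood at 11.6, 13.3 and 13 CPM in WT and 46.3, 49.6 and 46.1 CPM in hac1-2. LTP3 rose by 1.9 log2 units (SE 0.15, adjusted p = 6.4e-10 in edgeR). The WT and hac1-2 values were far apart in all 4, and the ranking of the largest rises required groups without overlap. CER1, which acts in the making of wax alkanes, stood at 9.21, 14.2 and 10.9 CPM in WT and 29.9, 38.7 and 29.4 CPM in hac1-2. CER1 rose by 1.53 log2 units (SE 0.19, adjusted p = 2.1e-06 in edgeR). TGG1, a myrosinase that cleaves glucosinolates, stood at 9.35, 8.83 and 6.25 CPM in WT and 20.1, 21.2 and 23.5 CPM in hac1-2. TGG1 rose by 1.42 log2 units (SE 0.20, adjusted p = 1.0e-05 in edgeR). AT4G34950, a major facilitator superfamily transporter gene, stood at 28.3, 27.2 and 30.2 CPM in WT and 76.1, 77.1 and 73.8 CPM in hac1-2. AT4G34950 rose by 1.4 log2 units (SE 0.13, adjusted p = 8.7e-09 in edgeR). AT4G04223, a noncoding RNA also among the 15 largest rises, matches AT3G56210 at 99.5% identity over 100% of its exonic length, so its count is uncertain. The others were KIN1, AT3G23450, AT1G16850, AT5G39960, XERO2, AT4G30020 and AT1G42480, with log2 fold changes from 1.14 (AT1G42480) to 1.67 (KIN1). Of these, AT5G39960 lost its call without hac1-2 replicate 3, and AT1G42480 without WT replicates 1 and 3 and hac1-2 replicates 2 and 3, each left out in turn.

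**Figure D2:**
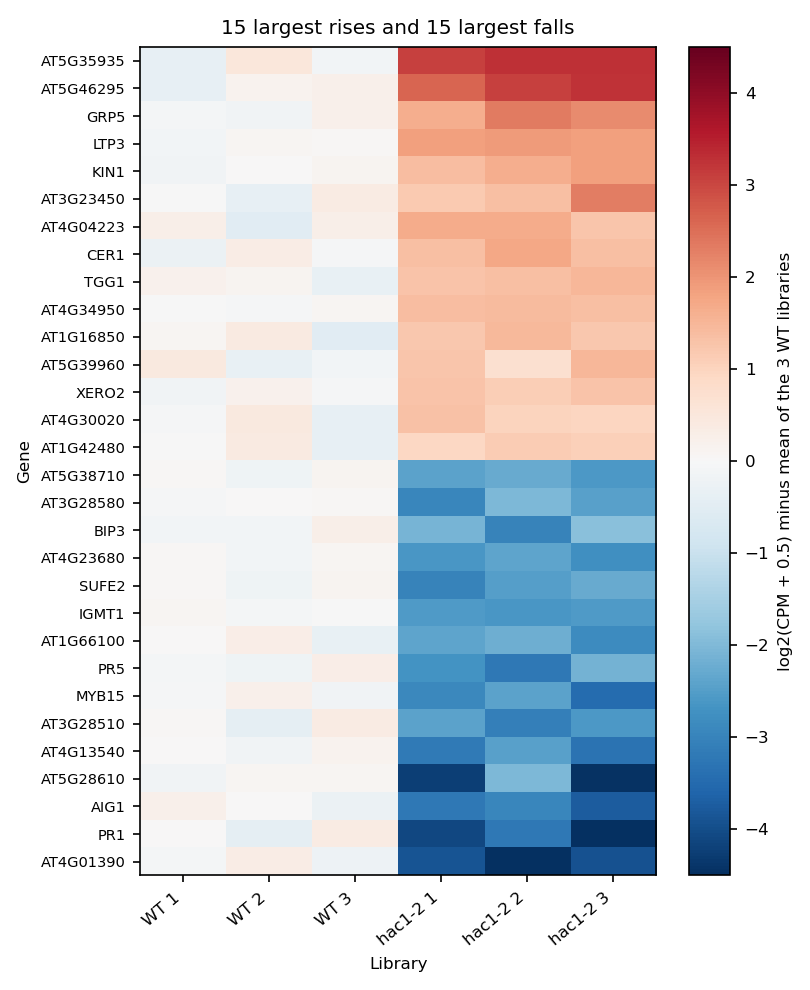
Colour gives log2(CPM + 0.5) of each library minus the mean of the 3 WT libraries, for the 15 largest rises and the 15 largest falls among called genes whose mean reached 5 CPM and whose groups did not overlap. All 3 hac1-2 libraries are red for the rises and blue for the falls, and AT5G28610 shows hac1-2 replicate 2 paler than replicates 1 and 3.

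In mean FPKM, the deposited per-length unit, genes were ranked among called genes whose groups did not overlap in CPM. The 8 largest gains were in LHCB1.1, LHCB1.3, PSAF, GRP7, COR15B, RD29A, KIN2 and AT5G39570. The 8 largest losses were in ECS1, AT1G67865, AT2G15960, AT2G33830, HSPRO2, TCTP, CCL and AT5G42530. LHCB1.3 was at 4996 FPKM in WT and 7491 FPKM in hac1-2 on average, and its libraries stood at 5106, 5901 and 5052 CPM in WT and 7701, 7517 and 7736 CPM in hac1-2. KIN2, a cold-inducible gene, was at 1558 FPKM in WT and 2892 FPKM in hac1-2, a call lost with DESeq2 and on log2(FPKM + 0.1) values. Leaving out a single library ended the call of PSAF (WT replicate 1 or 2, hac1-2 replicate 1 or 2), AT5G39570 (WT replicate 2, hac1-2 replicate 1 or 2) and AT1G67865 (WT replicate 2). GRP7, an RNA-binding protein gene under clock control, stood at 2839, 2887 and 3065 CPM in WT and 3369.5, 3880.3 and 4177 CPM in hac1-2, and its call was lost on both FPKM scales and without WT replicate 1 or hac1-2 replicate 3. Of the losses, AT5G42530, an uncharacterized protein gene, stood at 904, 921 and 878 CPM in WT and 342, 345 and 309.5 CPM in hac1-2. AT5G42530 fell by 1.44 log2 units (SE 0.10, adjusted p = 9.1e-11 in edgeR). ECS1 stood at 629.6, 1009 and 677 CPM in WT and 169.8, 187 and 197 CPM in hac1-2. ECS1 fell by 2.06 log2 units (SE 0.15, adjusted p = 1.0e-10 in edgeR). AT2G15960, annotated as a stress-induced protein, stood at 945, 940.1 and 1047 CPM in WT and 499, 675 and 541 CPM in hac1-2. AT2G15960 fell by 0.77 log2 units (SE 0.12, adjusted p = 4.7e-05 in edgeR). AT2G33830, of the dormancy/auxin-associated family, stood at 1111, 1295 and 978 CPM in WT and 706, 692 and 684 CPM in hac1-2. AT2G33830 fell by 0.7 log2 units (SE 0.13, adjusted p = 3.7e-04 in edgeR). In these 4 genes the groups did not overlap, as the ranking required.

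Gene lists were drawn up with earlier results of these data known. Each list is described by the count of its called members and its median log2 fold change, without a test of the list. The shares to set them against are the 2.85% higher and 7.44% lower over all tested genes and the overall median of 0.02. Genes given with values kept their call under the other 16 settings tried unless a lost call is given, except that BIP3, DVR, EDS5, PAD3, SEP1 and VSP2 were left out by the filter at a mean of at least 5 CPM over the 9 libraries and have no call there.

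Among 20 tested salicylic acid and systemic resistance genes, 14 fell and none rose, with a median of -0.95. For synthesis, ICS1, the isochorismate synthase that starts the main route to salicylic acid, fell from 19.9 ± 3.59 CPM in WT to 9.75 ± 0.482 CPM in hac1-2 (SD, n = 3), which did not pass on log2(FPKM + 0.1) values (limma adjusted p = 0.059), and PBS3, which conjugates isochorismate, fell by 1.54 log2 units (SE 0.28, adjusted p = 3.8e-04 in edgeR). EDS5, the transporter that exports isochorismate from plastids, fell from 7.15 ± 0.708 CPM in WT to 1.93 ± 1.18 CPM in hac1-2. PAD4, a lipase-like regulator of basal defence, fell from 85 ± 7.23 CPM in WT to 54.3 ± 9.71 CPM in hac1-2. Among outputs, PR2, a glucanase gene, stood at 165, 139 and 164 CPM in WT and 49.3, 50.5 and 46.4 CPM in hac1-2. PR2 fell by 1.68 log2 units (SE 0.11, adjusted p = 8.7e-11 in edgeR). GRX480, a glutaredoxin gene induced by salicylic acid, stood at 171, 153 and 204 CPM in WT and 50.002, 71.8 and 70.3 CPM in hac1-2. GRX480 fell by 1.46 log2 units (SE 0.13, adjusted p = 9.3e-09 in edgeR). DMR6, which hydroxylates salicylic acid, fell from 12.3 ± 1.86 CPM in WT to 3.19 ± 0.534 CPM in hac1-2. Synthesis, signalling and output genes were thus all represented among the falls, and fits that left out a single library called 11 to 12 of them.

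Of 44 tested WRKY genes, 9 fell and none rose (median -0.34). WRKY46 stood at 54.5, 57.3 and 53.6 CPM in WT and 17.9, 13.7 and 11.3 CPM in hac1-2. WRKY46 fell by 1.95 log2 units (SE 0.17, adjusted p = 3.1e-09 in edgeR). WRKY53, a factor known to advance leaf senescence, stood at 134, 143 and 125 CPM in WT and 79.3, 72.1 and 88.2 CPM in hac1-2. WRKY53 fell by 0.75 log2 units (SE 0.11, adjusted p = 3.0e-05 in edgeR). WRKY33, a regulator of camalexin synthesis, fell from 1995 ± 98.8 CPM in WT to 1382 ± 106 CPM in hac1-2 (SD, n = 3), and WRKY40 from 559 ± 49.1 CPM in WT to 330.5 ± 12.2 CPM in hac1-2. The other called members were WRKY18, WRKY22, WRKY38, WRKY45 and WRKY75, named here after their values were seen. In the NAC family 6 of 46 genes fell and 1 rose (median -0.19), with falls in ANAC029, a factor known to promote senescence, from 80.8 ± 1.55 CPM in WT to 56 ± 5.87 CPM in hac1-2, and in NAC3 (AT3G15500) from 13.8 ± 2.96 CPM in WT to 5.43 ± 1.38 CPM in hac1-2. ANAC072, also known as RD26, was the NAC gene that rose, from 164 ± 8.25 CPM in WT to 223 ± 14.7 CPM in hac1-2. ERF genes were split, with 14 of 40 lower and 3 higher (median -0.16), while 9 were lower without hac1-2 replicate 2 or 3, and 1 was higher without WT replicate 1 or 3 or hac1-2 replicate 2 or 3. ERF5, ERF6 and ERF105 fell from 677 ± 36.8 CPM in WT to 422 ± 32.8 CPM in hac1-2, from 309 ± 21.3 CPM in WT to 179 ± 7.96 CPM in hac1-2 and from 239.7 ± 10.3 CPM in WT to 131 ± 5.8 CPM in hac1-2, in that order, although ERF105 lies wholly within the exons of a gene on the opposite strand and its count is uncertain. AT1G33760, annotated as an Integrase-type DNA-binding protein, stood at 12.7, 24.1 and 19 CPM in WT and 7.83, 9.83 and 6.85 CPM in hac1-2. AT1G33760 fell by 1.17 log2 units (SE 0.26, adjusted p = 0.0027 in edgeR), which did not pass on log2(FPKM + 0.1) values (limma adjusted p = 0.063). CBF1, a cold-response factor that binds the DRE, was among the 3 that rose and stood at 62.8, 59.9 and 63.5 CPM in WT and 84.6, 79.7 and 99.99 CPM in hac1-2, a call lost without hac1-2 replicate 3. DREB1A and RAP2.7 also rose, and lost their calls without a single library, DREB1A in the fits without WT replicate 1 or 3 or hac1-2 replicate 2 or 3 and RAP2.7 in all but that without hac1-2 replicate 3. Of 9 tested stress C2H2 zinc finger genes, 3 fell (median -0.32), with ZAT7 at 57.8, 63.9 and 72.6 CPM in WT and 30.2, 32.5 and 33.9 CPM in hac1-2, and 1 did so without WT replicate 1 or hac1-2 replicate 1 or 3.

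Jasmonate genes fell in 16 of 32 cases and none rose (median -0.39), with 1 rise without WT replicate 1 or 2 or hac1-2 replicate 2. Of the synthesis enzymes, AOC3, an allene oxide cyclase, stood at 22.2, 21.5 and 19.1 CPM in WT and 6.32, 8.88 and 7.66 CPM in hac1-2, and the lipoxygenase gene LOX3 fell from 269 ± 14.7 CPM in WT to 158 ± 22.7 CPM in hac1-2 (SD, n = 3). JAZ repressors, themselves induced by jasmonate, were among the falls. JAZ5 stood at 115, 118 and 124 CPM in WT and 48.4, 40.9 and 44.8 CPM in hac1-2. JAZ5 fell by 1.42 log2 units (SE 0.12, adjusted p = 1.3e-09 in edgeR), and JAZ1 fell from 525 ± 46.8 CPM in WT to 294 ± 14.4 CPM in hac1-2. CYP94B3, which oxidises the active hormone conjugate, stood at 249, 256 and 273 CPM in WT and 113.5, 121 and 115 CPM in hac1-2. CYP94B3 fell by 1.15 log2 units (SE 0.10, adjusted p = 7.5e-09 in edgeR). VSP2, a classic output gene, was low in both groups and fell from 5.43 ± 0.773 CPM in WT to 0.664 ± 0.734 CPM in hac1-2, a call lost with DESeq2 and on log2(FPKM + 0.1) values. Touch-response and calmodulin-like genes fell in 5 of 11 cases and none rose (median -0.88), with the calmodulin-like CML41 at 405, 353 and 487 CPM in WT and 187, 223 and 217 CPM in hac1-2, TCH3 at 217, 269 and 217 CPM in WT and 109, 110.5 and 110.6 CPM in hac1-2 and the cell wall enzyme TCH4 at 568, 408 and 485 CPM in WT and 288, 210.2 and 250.4 CPM in hac1-2. Of 23 genes for pattern receptors and MAP kinases 4 fell and none rose (median -0.22). RBOHD, the oxidase that makes the apoplastic oxidative burst, stood at 172, 206 and 174 CPM in WT and 89.98, 94.2 and 89.8 CPM in hac1-2. RBOHD fell by 1.01 log2 units (SE 0.12, adjusted p = 9.4e-07 in edgeR). Cysteine-rich receptor-like kinases fell in 9 of 30 cases (median -0.35), 5 without WT replicate 2 or hac1-2 replicate 2 and 4 without hac1-2 replicate 3, with CRK4 at 78.2, 86.9 and 76.3 CPM in WT and 40.1, 40.1 and 41.9 CPM in hac1-2. Glutathione S-transferases fell in 8 of 22 cases and none rose (median -0.55). GSTF7, whose upstream sequence with paired W-boxes is printed above, stood at 73.1, 68.4 and 70.5 CPM in WT and 32.3, 36.3 and 36.3 CPM in hac1-2. GSTF7 fell by 1.01 log2 units (SE 0.12, adjusted p = 1.2e-06 in edgeR).

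Of the lists with at least 5 tested members, that of aliphatic glucosinolates had the highest share of called members. Glucosinolates are sulfur-rich defence compounds of the cabbage order, made from methionine in the aliphatic branch and from tryptophan in the indole branch. In the aliphatic branch 15 of 19 tested genes fell and 1 rose (median -0.69), and 12 to 14 fell in fits without a single library. Of its transcription factors, MYB29 stood at 25.6, 30.3 and 22.2 CPM in WT and 5.63, 5.6 and 5.38 CPM in hac1-2. MYB29 fell by 2.23 log2 units (SE 0.21, adjusted p = 2.2e-08 in edgeR). MYB28 fell from 178 ± 35 CPM in WT to 113.4 ± 2.16 CPM in hac1-2 (SD, n = 3). Both regulators were thus lower in every hac1-2 library than in any WT library. For chain elongation, BCAT4, which deaminates methionine, stood at 133, 144 and 144 CPM in WT and 67.4, 63.2 and 66.8 CPM in hac1-2. BCAT4 fell by 1.09 log2 units (SE 0.11, adjusted p = 7.2e-08 in edgeR). MAM1, the methylthioalkylmalate synthase that extends the chain, stood at 694, 813 and 699.6 CPM in WT and 332, 353 and 314 CPM in hac1-2. MAM1 fell by 1.14 log2 units (SE 0.11, adjusted p = 2.0e-08 in edgeR). MAM3, its paralogue for longer chains, went the other way, at 17.6, 15.8 and 13.5 CPM in WT and 33.7, 29.6 and 29 CPM in hac1-2. MAM3 rose by 0.98 log2 units (SE 0.18, adjusted p = 3.7e-04 in edgeR). This was the only called rise of the list. MAM1 and MAM3 were not among the genes with a near-identical counted copy.

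For the core structure of the aliphatic branch, CYP79F1, which turns the extended amino acids into oximes, stood at 498, 425 and 428 CPM in WT and 182, 171 and 181 CPM in hac1-2. CYP79F1 fell by 1.34 log2 units (SE 0.11, adjusted p = 1.3e-09 in edgeR). CYP83A1, the next enzyme, fell from 346 ± 30.8 CPM in WT to 194 ± 10.2 CPM in hac1-2 (SD, n = 3). SUR1, the C-S lyase shared by both branches, fell from 114 ± 9.22 CPM in WT to 82.5 ± 5.41 CPM in hac1-2, and the sulfotransferase gene SOT17 from 48.1 ± 3.54 CPM in WT to 29.9 ± 5.04 CPM in hac1-2. For side-chain modification, FMO_GS-OX1, an S-oxygenase gene, fell from 19.2 ± 1.65 CPM in WT to 9.35 ± 1.07 CPM in hac1-2. AOP2, which the reference annotates as a transcribed pseudogene, stood at 146, 143 and 149 CPM in WT and 58.2, 59.9 and 69.7 CPM in hac1-2. AOP2 fell by 1.22 log2 units (SE 0.12, adjusted p = 7.0e-08 in edgeR). The falls thus spanned regulators, elongation, core synthesis and side-chain steps.

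In the indole and camalexin branch 10 of 19 genes fell and none rose (median -0.45), with 8 to 10 in fits without a single library. MYB51, its regulator, stood at 78.3, 91.8 and 76.7 CPM in WT and 34.6, 33.6 and 35.7 CPM in hac1-2. MYB51 fell by 1.25 log2 units (SE 0.12, adjusted p = 4.3e-08 in edgeR). CYP79B2, which turns tryptophan into the oxime shared with camalexin and auxin synthesis, stood at 14.4, 19.2 and 13.7 CPM in WT and 6.73, 4.12 and 5.64 CPM in hac1-2. CYP79B2 fell by 1.52 log2 units (SE 0.25, adjusted p = 8.1e-05 in edgeR). IGMT1, a methyltransferase of indole glucosinolates, stood at 44.9, 39.8 and 41.7 CPM in WT and 6.87, 6.45 and 6.72 CPM in hac1-2. IGMT1 fell by 2.66 log2 units (SE 0.19, adjusted p = 1.0e-10 in edgeR). CYP81F2, which hydroxylates the indole ring, stood at 12.2, 16.8 and 11.7 CPM in WT and 4.4, 3.7 and 1.75 CPM in hac1-2. CYP81F2 fell by 2.03 log2 units (SE 0.34, adjusted p = 1.6e-04 in edgeR). PAD3, the last enzyme of camalexin synthesis, fell from 3.42 ± 0.688 CPM in WT to 0.276 ± 0.143 CPM in hac1-2 (SD, n = 3), a mean in hac1-2 below the level of 3 counts. TGG1, the cleaving enzyme given above, rose while these genes fell. It is also a marker of guard cells and idioblast cells, and of 9 tested guard cell markers TGG1 rose, MYB60 and FAMA fell and 6 were not called, the MYB60 call being lost without WT replicate 3 and the FAMA call on both FPKM scales and without WT replicate 2 or hac1-2 replicate 3. The summed level of these markers was 140.7 to 154 CPM in WT and 147 to 151 CPM in hac1-2. In whole leaves, fewer cells of a type and less RNA per cell cannot be told apart.

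**Figure D3:**
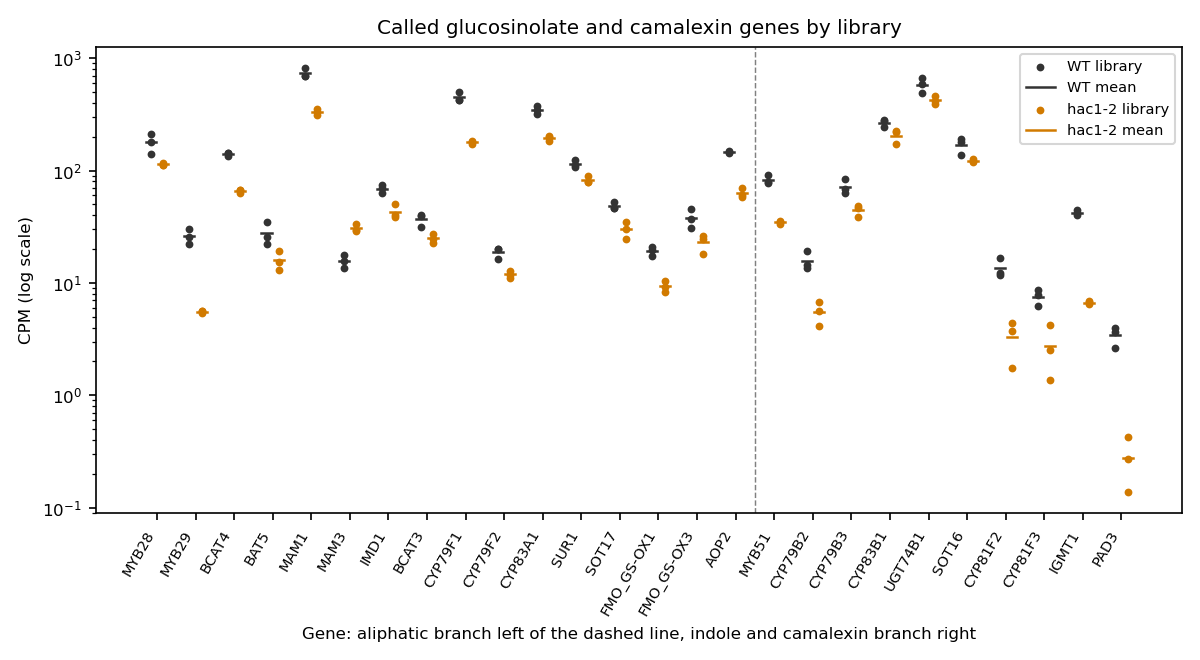
Points are CPM in each of the 3 WT (black) and 3 hac1-2 (orange) libraries on a log axis, with a bar at each group mean, for the called genes of both glucosinolate branches and camalexin. Every gene shown lies lower in hac1-2 except MAM3, the called rise.

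Nitrogen genes fell in 9 of 23 cases and none rose (median -0.37). NIA2, the major nitrate reductase, stood at 805, 757 and 761 CPM in WT and 388, 386 and 385 CPM in hac1-2. NIA2 fell by 1.00 log2 units (SE 0.10, adjusted p = 3.4e-08 in edgeR). NIA1, the minor isoform, stood at 108, 109 and 115 CPM in WT and 68.1, 65.9 and 66.4 CPM in hac1-2. NIA1 fell by 0.73 log2 units (SE 0.11, adjusted p = 2.4e-05 in edgeR). NRT1.5, a nitrate transporter, stood at 50.7, 47.8 and 49.1 CPM in WT and 19.9, 16 and 18.5 CPM in hac1-2. NRT1.5 fell by 1.44 log2 units (SE 0.14, adjusted p = 3.9e-08 in edgeR). ASN1, an asparagine synthetase known to be induced by darkness and senescence, stood at 38.4, 28.7 and 40.9 CPM in WT and 11.3, 10.15 and 12.1 CPM in hac1-2. ASN1 fell by 1.7 log2 units (SE 0.18, adjusted p = 8.6e-08 in edgeR). GLU1, the ferredoxin-dependent glutamate synthase of photorespiratory ammonium, fell from 664 ± 52.1 CPM in WT to 488 ± 9.92 CPM in hac1-2 (SD, n = 3). The falls thus included nitrate transport, nitrate reduction and the making of asparagine. Photorespiration genes fell in 3 of 12 cases and none rose (median -0.17), namely CAT2, the peroxisomal catalase, from 205 ± 10.8 CPM in WT to 139.6 ± 6.66 CPM in hac1-2, and the aminotransferase genes GGT1 from 582 ± 20.1 CPM in WT to 399.99 ± 13 CPM in hac1-2 and AGT from 520.1 ± 33.9 CPM in WT to 371 ± 13.6 CPM in hac1-2. Of 20 tested sugar transporter genes 4 fell and 1 rose (median -0.31), the rise being lost without WT replicate 1 or 2 or hac1-2 replicate 1 or 2, with SUC2, which loads sucrose into the phloem, falling from 82.1 ± 7.16 CPM in WT to 53.3 ± 5.06 CPM in hac1-2 and STP1, a hexose importer, from 348 ± 34 CPM in WT to 224 ± 10.7 CPM in hac1-2. Of 9 tested phloem markers SUC2, SWEET11 and AHA3 fell and 6 were not called, and their summed level was 733 to 833 CPM in WT and 461 to 591 CPM in hac1-2; the part of cell type content in these falls was not tested. The AHA3 call was lost on both FPKM scales and without hac1-2 replicate 2. Trehalose-6-phosphate synthase genes fell in 2 of 8 cases (median -0.21), 1 without WT replicate 1 or 3 or hac1-2 replicate 2 or 3, with TPS9 at 70.8, 66.3 and 66.2 CPM in WT and 43.1, 36.3 and 41.4 CPM in hac1-2.

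Senescence-associated genes fell in 7 of 12 tested cases and none rose (median -0.91). SAG20, with paired W-boxes in the sequence above, stood at 82, 85.2 and 86.3 CPM in WT and 29.4, 31.8 and 35.9 CPM in hac1-2. SAG20 fell by 1.38 log2 units (SE 0.12, adjusted p = 6.3e-09 in edgeR). SEN1, a gene induced by darkness and senescence, stood at 69.8, 64.9 and 72.9 CPM in WT and 19.4, 18.7 and 32.4 CPM in hac1-2. SEN1 fell by 1.57 log2 units (SE 0.18, adjusted p = 8.1e-07 in edgeR). SAG21 stood at 253, 235 and 269 CPM in WT and 122.8, 108 and 139 CPM in hac1-2. SAG21 fell by 1.03 log2 units (SE 0.11, adjusted p = 1.6e-07 in edgeR). DIN10, induced by darkness and sugar starvation, stood at 72.1, 83.5 and 63.8 CPM in WT and 36.7, 35.1 and 31.6 CPM in hac1-2. DIN10 fell by 1.08 log2 units (SE 0.13, adjusted p = 9.8e-07 in edgeR). SAG12, a protease gene specific to late senescence, was too low to be tested, at 0, 0.519 and 0.361 CPM in WT and 0, 0 and 0 CPM in hac1-2. Chlorophyll breakdown genes fell in 5 of 13 cases (median -0.25), and in 3 without WT replicate 1 or 3 or hac1-2 replicate 2 or 3. CLH1, a chlorophyllase, stood at 28.5, 21.6 and 28.5 CPM in WT and 10.4, 9.94 and 10.6 CPM in hac1-2. CLH1 fell by 1.35 log2 units (SE 0.19, adjusted p = 1.7e-05 in edgeR), and MES16, which acts on late chlorophyll catabolites, stood at 24.4, 25.5 and 26.9 CPM in WT and 14.8, 14.8 and 15.5 CPM in hac1-2. NYE1, which removes magnesium from chlorophyll, fell from 22.8 ± 2.36 CPM in WT to 14.7 ± 1.92 CPM in hac1-2 (SD, n = 3), a call lost on both FPKM scales and without WT replicate 1 or 3 or hac1-2 replicate 2. PAO and PPH, the central enzymes of the pathway, were not called, with log2 fold changes of 0.06 and -0.25.

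Chloroplast genes rose in several lists, each by less than 2-fold apart from DVR, a chlorophyll synthesis reductase at 2.27, 2.08 and 1.92 CPM in WT and 5.63, 5.6 and 5.38 CPM in hac1-2, whose call was lost without WT replicate 3. Of 20 tested antenna genes 8 rose and none fell (median 0.31), 4 without WT replicate 1 and 5 without WT replicate 3 or hac1-2 replicate 3. LHCB1.1, LHCB1.2 and LHCB1.3 encode the major trimeric antenna of photosystem II. LHCB1.1 and LHCB1.2 each share at least 95% identity with LHCB1.3 over more than 50% of their exonic length. Reads may therefore be split between each of them and LHCB1.3. LHCB1.3 rose by 0.52 log2 units (SE 0.10, adjusted p = 9.3e-04 in edgeR), and LHCB1.1 stood at 1119.7, 1148 and 1172 CPM in WT and 1602, 1716 and 1811 CPM in hac1-2. The LHCB1.2 call was lost without WT replicate 1. LHCB2.2 stood at 373, 316 and 331 CPM in WT and 452, 473 and 463 CPM in hac1-2. LHCB2.2 rose by 0.44 log2 units (SE 0.10, adjusted p = 0.0039 in edgeR). Of 24 chlorophyll synthesis genes 7 rose and none fell (median 0.30), 4 without WT replicate 2 and 3 without WT replicate 3 or hac1-2 replicate 3. CHLI1, a subunit of magnesium chelatase, stood at 122.1, 84.3 and 117 CPM in WT and 162, 150.3 and 163 CPM in hac1-2. CHLI1 rose by 0.55 log2 units (SE 0.13, adjusted p = 0.0052 in edgeR). PORB, a light-dependent protochlorophyllide reductase, stood at 100.01, 97.5 and 116 CPM in WT and 150.3, 135.9 and 149 CPM in hac1-2. PORB rose by 0.47 log2 units (SE 0.11, adjusted p = 0.0062 in edgeR). For photosystem cores and electron transport, 4 of 32 genes rose and none fell (median 0.23), but the calls numbered 1 without WT replicate 1, 2 without WT replicate 2 or 3, 0 without hac1-2 replicate 2 and 1 without hac1-2 replicate 3. Calvin cycle genes had a median of -0.06, and of 18 tested GAPA-2, a glyceraldehyde-3-phosphate dehydrogenase subunit, was the called gene, at 59.9, 58.7 and 46.9 CPM in WT and 91.2, 87.3 and 83.6 CPM in hac1-2.

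Starch turnover genes rose in 9 of 25 cases and fell in 1 (median 0.32), with 7 to 9 rises in fits without a single library. Leaf starch is made by day and broken down at night, when glucan phosphorylation loosens the granule and amylases, debranching enzymes and disproportionating enzymes degrade it. PWD, a glucan kinase, stood at 184, 179.5 and 213 CPM in WT and 258, 285 and 257 CPM in hac1-2. PWD rose by 0.47 log2 units (SE 0.11, adjusted p = 0.0033 in edgeR). SEX4, a phosphoglucan phosphatase, stood at 45.3, 43.1 and 40.6 CPM in WT and 69, 64.8 and 65.3 CPM in hac1-2. SEX4 rose by 0.63 log2 units (SE 0.12, adjusted p = 5.7e-04 in edgeR). ISA3, a debranching enzyme, stood at 111.5, 98.5 and 122.9 CPM in WT and 165, 154 and 158 CPM in hac1-2. ISA3 rose by 0.52 log2 units (SE 0.11, adjusted p = 0.0017 in edgeR). PHS1, the plastidial glucan phosphorylase, stood at 81.3, 90.2 and 85.6 CPM in WT and 170.1, 149 and 153 CPM in hac1-2. PHS1 rose by 0.88 log2 units (SE 0.11, adjusted p = 1.3e-06 in edgeR). DPE1, the plastidial disproportionating enzyme, stood at 37.5, 39.6 and 43.8 CPM in WT and 61.8, 68.8 and 63.8 CPM in hac1-2. DPE1 rose by 0.68 log2 units (SE 0.12, adjusted p = 2.5e-04 in edgeR). AMY3, the plastidial alpha-amylase, rose from 98.1 ± 11.2 CPM in WT to 146 ± 17.5 CPM in hac1-2 (SD, n = 3). The rises were in enzymes of degradation apart from ADG1, a subunit of the starch-making ADP-glucose pyrophosphorylase, at 102, 80.9 and 106 CPM in WT and 131, 114 and 133 CPM in hac1-2, a call lost on both FPKM scales and without WT replicate 1 or 2 or hac1-2 replicate 1 or 3. BAM1, a stress-related beta-amylase, was the called fall, at 154, 135 and 152 CPM in WT and 123.5, 112 and 111.4 CPM in hac1-2, and lost its call in 8 settings, among them total-count scaling and the fits without WT replicate 1 or 3 or hac1-2 replicate 2 or 3.

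**Figure D4:**
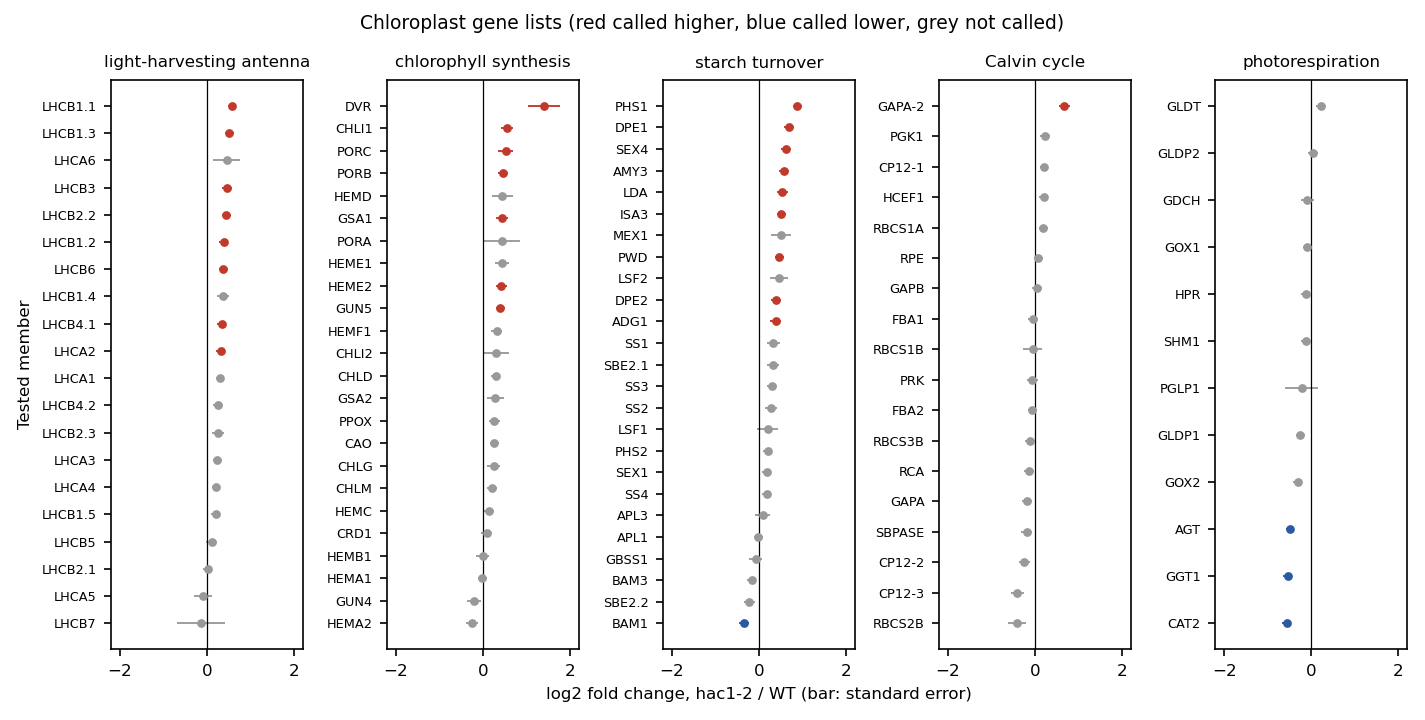
Points give the log2 fold change of hac1-2 over WT for each tested member of 5 lists, with bars for the standard error. The lists are the antenna, chlorophyll synthesis, starch turnover, the Calvin cycle and photorespiration. Called rises (red) stand near the top of the antenna, chlorophyll synthesis and starch lists, whereas CAT2, GGT1 and AGT are called falls (blue) among photorespiration genes.

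Cold- and drought-inducible genes rose in 9 of 32 cases of the abscisic acid and dehydrin list and fell in 1, although the list's median was 0.07. All 6 fits without a single library gave the same counts of 9 and 1. RD29A, a gene of dehydration and cold, stood at 1386, 1308 and 1352 CPM in WT and 3014, 2932 and 2947 CPM in hac1-2. RD29A rose by 1.14 log2 units (SE 0.10, adjusted p = 7.5e-09 in edgeR). COR15A and COR15B, chloroplast proteins that protect membranes during freezing, stood at 174, 172 and 184 CPM in WT and 319, 308 and 308 CPM in hac1-2 and at 400.2, 354 and 442 CPM in WT and 759, 745 and 874 CPM in hac1-2, respectively. XERO2, a dehydrin gene, stood at 51.1, 65.3 and 55.7 CPM in WT and 139.8, 124 and 138 CPM in hac1-2. XERO2 rose by 1.23 log2 units (SE 0.12, adjusted p = 2.4e-08 in edgeR). KIN1 stood at 11.2, 12.6 and 13.6 CPM in WT and 33.1, 39.9 and 46.5 CPM in hac1-2. KIN1 rose by 1.67 log2 units (SE 0.16, adjusted p = 3.7e-08 in edgeR). RD29A, XERO2 and KIN1 rose by more than 2-fold. RD22, a dehydration-induced gene, rose from 464 ± 29.3 CPM in WT to 814 ± 18.2 CPM in hac1-2 (SD, n = 3). CYP707A3, which breaks down abscisic acid, was the called fall, from 166 ± 20.5 CPM in WT to 109.6 ± 16.7 CPM in hac1-2, a call lost on both FPKM scales. COR15B shares 29.5% of its exonic length with a gene on the opposite strand.

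Growth and surface genes showed smaller groups of changes. Lipid transfer protein genes LTP3 and LTP1 were the called members, both higher, of 7 tested (median 0.25), and LTP1, also an epidermal marker, stood at 20.7, 20.8 and 17.3 CPM in WT and 37.6, 40.6 and 45.3 CPM in hac1-2. Of 5 tested epidermal markers LTP1 was the called gene, and their summed level was 233 to 254 CPM in WT and 290 to 319 CPM in hac1-2, whose part in these rises was not tested. Of 20 cuticle genes CER1 and WSD1 rose (median 0.18), and the WSD1 call was lost on both FPKM scales and without WT replicate 1 or 3 or hac1-2 replicate 2 or 3. Auxin-responsive genes fell in 10 of 46 cases and rose in 1 (median -0.27), 5 of them lower without WT replicate 1 or 3 or hac1-2 replicate 2. SAUR30 stood at 19.8, 12.8 and 16.4 CPM in WT and 6.73, 3.49 and 5.11 CPM in hac1-2. SAUR30 fell by 1.7 log2 units (SE 0.27, adjusted p = 5.8e-05 in edgeR), and IAA3, an auxin response repressor, stood at 31.2, 32.2 and 32.8 CPM in WT and 51.5, 50.6 and 52.1 CPM in hac1-2. IAA3 rose by 0.68 log2 units (SE 0.13, adjusted p = 4.1e-04 in edgeR), and shares 39.6% of its exonic length with a gene on the opposite strand. Xyloglucan endotransglucosylase genes fell in 4 of 10 cases, while the other 6 lay above 0 and were not called (median 0.16), with XTH27 from 122.8 ± 4.69 CPM in WT to 85.8 ± 10.7 CPM in hac1-2 (SD, n = 3). Of 13 aquaporin genes 4 fell and 1 rose (median -0.11), with PIP1C at 57.5, 58.2 and 59.6 CPM in WT and 33.9, 30.02 and 35.1 CPM in hac1-2 and PIP1;5 at 18.3, 18.4 and 19 CPM in WT and 28.8, 35.2 and 36.3 CPM in hac1-2. Expansins rose in 2 of 6 cases (median 0.08), but in 1 without WT replicate 1 or 3 or hac1-2 replicate 1 or 2 and in 0 without hac1-2 replicate 3.

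Among flowering time genes, of which 3 of 22 rose and 1 fell (median -0.12), FLC and FUL changed in opposite directions. The rises numbered 1 without WT replicate 1 or 3 or hac1-2 replicate 1 or 2. FLC, the MADS-box repressor of flowering, stood at 3.54, 1.56 and 1.08 CPM in WT and 8.93, 6.77 and 7.39 CPM in hac1-2. FLC rose by 1.9 log2 units (SE 0.36, adjusted p = 6.6e-04 in edgeR). WT replicate 1 lay above the other WT libraries, and 68.1% of the exonic length of FLC is shared with a noncoding RNA gene on the opposite strand. Without WT replicate 1 the log2 fold change was 2.56. FUL, a MADS-box gene that promotes flowering and ageing, stood at 14.2, 15.2 and 19.1 CPM in WT and 3.3, 2.96 and 3.9 CPM in hac1-2. FUL fell by 2.26 log2 units (SE 0.28, adjusted p = 1.6e-06 in edgeR). SEP1, a floral organ gene, was the tested member of 12 meristem and floral markers and fell from 1.7 ± 0.126 CPM in WT to 0.0458 ± 0.0793 CPM in hac1-2 (SD, n = 3), with 6 of the other markers at 0 in the 6 libraries and a summed level of 2.25 to 3.37 CPM in WT and 0.538 to 0.846 CPM in hac1-2. Clock genes showed 2 falls and 1 rise among 21 (median -0.04), the rise (PRR3) being lost without WT replicate 1 or hac1-2 replicate 2, with the morning genes CCA1 and RVE1 at 143, 168 and 150.04 CPM in WT and 117, 104 and 104.7 CPM in hac1-2 and at 33.7, 39.5 and 43.5 CPM in WT and 19.4, 24.8 and 22.7 CPM in hac1-2. Ethylene genes (median 0.004) fell in 3 of 15 cases and rose in 2, or in 1 without WT replicate 1 or 3 or hac1-2 replicate 1, 2 or 3, with EBF2, which targets the ethylene factor EIN3 for breakdown, at 127, 127 and 121 CPM in WT and 159, 172 and 177 CPM in hac1-2. Cytokinin genes fell in 3 of 19 cases (median -0.05), but in 0 or 1 without WT replicate 2 or 3 or hac1-2 replicate 1 or 3. Phosphate and iron genes rose in 2 and fell in 2 of 16 cases (median 0.08), and in no more than 1 each without WT replicate 2 or 3 or hac1-2 replicate 1 or 3, with the iron store gene FER1 at 46.5, 50.04 and 52.2 CPM in WT and 83.9, 73.2 and 81 CPM in hac1-2. Of 7 anthocyanin and flavonoid genes, PAP1, a MYB activator of anthocyanin synthesis, was the called one and stood at 12.5, 17.8 and 13.6 CPM in WT and 5.49, 6.13 and 9.0 CPM in hac1-2; without WT replicate 2 the count was 2.

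Of 299 ribosomal protein genes 8 rose and 4 fell (median 0.01), with 4 and 2 without WT replicate 2 or 3, 4 and 3 without hac1-2 replicate 2 and 3 and 2 without hac1-2 replicate 3. None of 42 proteasome genes was called by edgeR or DESeq2, with 2 at an unadjusted edgeR p under 0.05. Of 33 autophagy genes 1 fell, ATG18F, whose call was lost without WT replicate 1 or 2 or hac1-2 replicate 1, 2 or 3. Of 36 heat shock genes 4 fell (11.1%) and none rose (median 0.07), 2 without WT replicate 3, with HSFA7A, a heat shock factor, at 8.22, 9.7 and 9.26 CPM in WT and 1.92, 1.37 and 2.42 CPM in hac1-2. Called genes were spread over the chromosomes, from 9.07% of tested genes on chromosome 5 to 10.96% on chromosome 2. Among genes annotated as pseudogenes 6 rose and 5 fell, or 10.5% of those tested. Among transcribed pseudogenes, a separate class that includes AOP2, none rose and 5 fell, or 6.17% of those tested. Of 126 long noncoding RNA genes 4 rose and 7 fell, and of 12 microRNA precursor genes 2 fell. None of 10 xylem or 10 dividing cell markers was high enough to be tested, with summed levels of 1.04 to 1.98 CPM in WT and 2.06 to 5.71 CPM in hac1-2 for xylem and of 3.64 to 4.96 and 2.96 to 3.57 CPM for dividing cells. Of 2 tested trichome markers 1 fell, a call lost in each fit without a single library, and the summed level was 4.82 to 6.58 CPM in WT and 4.17 to 4.65 CPM in hac1-2.

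**Figure D5:**
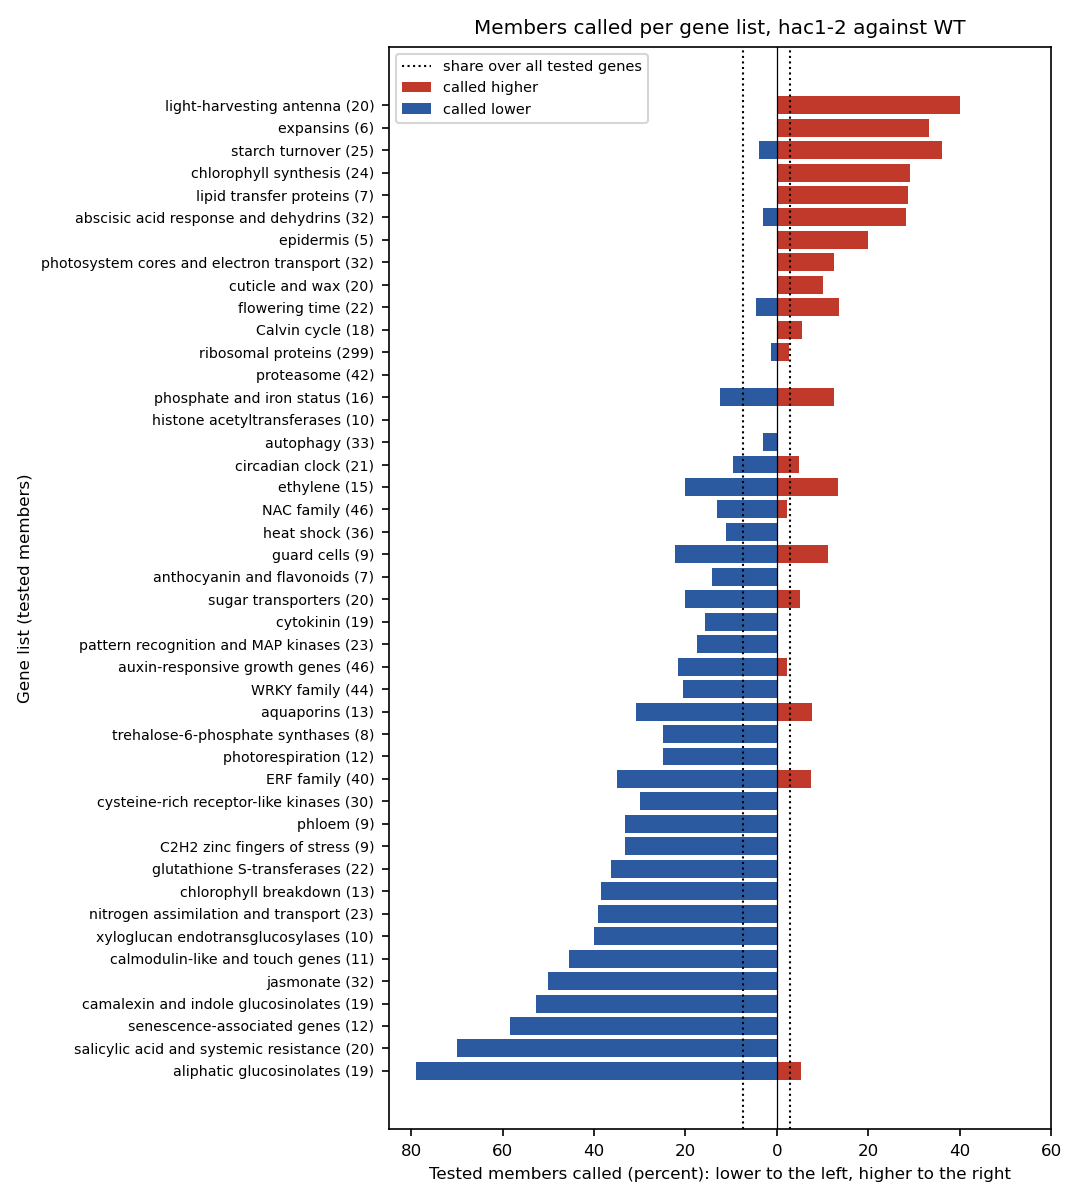
Bars give the percent of tested members called higher (red, right) and called lower (blue, left) for every list with at least 5 tested members, whose number stands in brackets. Dotted lines mark the shares over all tested genes, 2.85% higher and 7.44% lower, and the aliphatic glucosinolate list reaches furthest to the left.

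The hac1-1 libraries allow a direct test of where hac1-2 differed from the other insertion line, at the same age and with the same labels. edgeR called 470 genes between the lines, 2.84% of those tested, with 308 (1.86%) higher in hac1-2. The contrasts that involve hac1-1 were made only in the fit of all 9 libraries with TMM scaling. How far their counts depend on scaling or on single libraries was not tested. Of 20 antenna genes 14 were higher in hac1-2 than in hac1-1, as were 14 of 32 photosystem genes, 8 of 18 Calvin cycle genes and 5 of 24 chlorophyll synthesis genes, and none of these was lower. LHCB1.1, for example, was at 874 CPM in hac1-1 against the hac1-2 values above. Against WT, no member of these chloroplast lists was called higher in hac1-1. Called lower there were 4 antenna, 5 photosystem, 11 Calvin cycle and 3 chlorophyll synthesis genes. The median log2 fold changes of these lists in hac1-1 were -0.13, -0.21, -0.44 and -0.04, in that order. HAC1 itself was at 65 CPM in hac1-1, 1.05 lower on the log2 scale than in hac1-2 (edgeR adjusted p = 3.3e-06). Median log2 fold changes of the 19 aliphatic glucosinolate genes against the WT libraries that both lines share were -0.67 in hac1-1 and -0.69 in hac1-2.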

How the data were processed

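Total RNA from full leaves was made into strand-directed BrAD-seq libraries, per the labels. The authors deposited raw counts per gene and filtered FPKM values, on build TAIR10, per the submitters' processing notes and labels. Aligner, counter and counting strand are not given in the sources used here. Counts were tested with edgeR 4.0.16 (R 4.3.3) by glmQLFit and glmQLFTest after TMM scaling and filterByExpr (minimum count 10), with all 9 libraries in the dispersion. The biological coefficient of variation was 13.7%. Benjamini-Hochberg adjustment covered all 16560 genes. CPM errors are SD over 3 libraries.

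Alternatives used DESeq2 1.42.0, limma 3.58.1 on log2(FPKM + 1) and log2(FPKM + 0.1), other filters and scalings, no ribosomal RNA genes, a replicate block and leaving out each library. Ribosomal RNA genes held 12.1 to 15.7% of counts in the WT and hac1-2 libraries and 13.9 to 21.0% in the hac1-1 libraries. The WT and hac1-2 libraries correlated at 0.974 to 0.980 within and 0.952 to 0.959 between genotypes, and none was a duplicate.

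Named genes were HAC1, its called neighbours, the 15 largest rises and falls at a mean of at least 5 CPM without overlap, the 8 largest rises and falls in mean FPKM without overlap, up to 4 called members per list by adjusted p, SAG12 and AT1G33760. List members ADG1, AOC3, BAM1, BCAT4, CBF1, COR15A, CYP707A3, CYP83A1, DMR6, DREB1A, EDS5, FMO_GS-OX1, GLU1, HAM2, ICS1, ISA3, LHCB1.2, LOX3, MAM3, MYB28, PAD3, PAD4, PAO, PPH, PWD, RAP2.7, RD22, SOT17, SUR1, VSP2 and WRKY33 were chosen after their values were seen. Members and lists were chosen with earlier results of these data known. Reference annotation and sequences are RefSeq TAIR10.1. Near copies were searched with BLAST 2.17.0 among 291 genes. Of these, 53 share exonic bases with another gene, mostly on the opposite strand. Whether such reads were kept apart is not known, since the counting strand is not given. In 6 genes at least 50% of the exonic length is shared, namely AMT1;1, EMB3136, ERF105, FLC, GSTF2 and MYC2. Their counts are uncertain, and AMT1;1, MYC2 and GSTF2 are among the nitrogen, jasmonate and glutathione S-transferase falls, in that order. 1 named gene is not reported here.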

Additional observations from a re-analysis of the deposited data

Results flagged for a closer look

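Named genes were flagged where hac1-2 and hac1-1, compared with the same 3 WT libraries, differed from each other by edgeR's test of the contrast between the lines (Benjamini-Hochberg adjusted p under 0.05 over all 16560 genes). This held for 40 of 178 named and tested genes, 28 higher and 12 lower in hac1-2. Over all tested genes the share was 2.84%, but most named genes were chosen by their call against WT in the same hac1-2 libraries. These shares are therefore not comparable. Values in brackets are the log2 fold change of hac1-2 over hac1-1, with 3 libraries each. No other setting was tried for this contrast.

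Chloroplast genes for antenna proteins, photosystem subunits, chlorophyll synthesis and carbon fixation were higher in hac1-2, namely PSBW (0.42), LHCB1.3 (0.45), GAPA-2 (0.49), PORB (0.49), LHCB3 (0.55), PETE2 (0.56), LHCB2.2 (0.58), GUN5 (0.58), PSBX (0.61) and LHCB1.1 (0.97). In hac1-1 LHCB1.1 was at 874 CPM on average, against 1709.7 CPM in hac1-2. Transcription factor genes that fell against WT but were higher in hac1-2 than in hac1-1 were ERF6 (0.41), WRKY53 (0.43), ERF5 (0.52), WRKY22 (0.54), ZAT7 (0.74), DDF1 (1.39) and AT1G33760 (1.58). The other genes higher in hac1-2 were TIP1;2 (0.38), ACS6 (0.51), PIP1;5 (0.69), TCH4 (0.81), GRP5 (0.81), AT4G34950 (0.93), CYP94B3 (0.98), EXLA1 (1.03), HAC1 (1.05), AT1G78995 (1.83) and AT4G04223 (1.95). HAC1 and its neighbour AT1G78995 are among these, and AT1G78995 was at 11 CPM on average in hac1-1 against 38.9 CPM in hac1-2. The genes lower in hac1-2 were AT4G01390 (-3.14), AT3G28510 (-2.12), AT4G13540 (-1.48), HSFA7A (-1.39), GH3.5 (-1.09), FER1 (-0.92), CRK6 (-0.83), AT5G38710 (-0.80), NYE1 (-0.70), ECS1 (-0.52), AT5G42530 (-0.51) and SAG21 (-0.41). Of these AT4G01390, AT3G28510, AT4G13540 and AT5G38710 were among the 15 largest falls against WT.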

How the results depend on the processing

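The count of 1704 called genes was 2009 with the 6 libraries alone, 1706 with RLE scaling, 1745 with total-count scaling, 1737 with DESeq2, 1911 without a filter, 1475 at a mean of at least 5 CPM, 1718 without ribosomal RNA, and 1314 and 1217 with limma on log2(FPKM + 1) and log2(FPKM + 0.1). Total-count scaling called 737 genes higher, and log2(FPKM + 0.1) called 766 lower. Called changes of at least 2-fold numbered 44 higher and 305 lower at a mean of at least 5 CPM, where fewer genes were tested. They numbered 57 and 323 on log2(FPKM + 1) and 90 and 344 on log2(FPKM + 0.1), against 88 and 501. The cause of these and the other shifts was not tested. Without a single library 1202 to 1318 genes were called, 262 to 337 higher and 921 to 1022 lower, fewer than the 472 and 1232 with all libraries. Deviations of same-numbered WT and hac1-2 libraries correlated at 0.041, 0.012 and 0.051, and those of differently numbered libraries at -0.048 to 0.006. Whether a weak effect is shared by replicate number was not tested. A replicate block gave 2054 calls, 645 higher and 1409 lower. Photosystem genes called higher numbered 2 with RLE scaling, 10 with total-count scaling and 13 with the block, against 4, and total-count scaling called 11 chlorophyll synthesis and 16 ribosomal protein genes higher, against 7 and 8. Library totals limit genes with few counts, and 10578 of 33323 listed genes had none. No direction changed among the 178 named genes, of which 19 to 28 lost their call without a single library and 27 and 34 on the FPKM scales.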
